A study of Schizosaccharomyces pombe with 9 samples.

Results

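In fission yeast, Schizosaccharomyces pombe, 592 of the 6986 features in the deposited count table are non-coding RNAs that the annotation calls antisense and does not mark as a possible alternative UTR. They were taken as the features whose identifier starts with SPNCRNA and whose product description holds the word antisense without that mark. A further 102 antisense RNAs carry the mark and were kept apart. Of the 592 RNAs, 536 are named after the gene they run against, in the form slx4-antisense-1, and for 532 that sense gene has a row in the same table. These 532 RNAs lie against 517 distinct genes, because 13 genes have more than 1 antisense RNA. The other 56 RNAs carry no such name and were described without a partner.

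The 9 libraries were made from poly(A)+ RNA of vegetative cells in log phase (YES medium, 30 °C), with 3 libraries for each of 3 strains. The reference strain, written T4A here, carries rpb1-CTD-T4A29, in which the threonine at position 4 of the repeats in the tail (CTD) of the largest RNA polymerase II subunit is mutated. The other groups, STF6 and STF9, are suppressor strains of that mutant. What the series asks is which changes undo the over-repression of the phosphate (PHO) genes in the T4A mutant, and its title ties the answer to inositol pyrophosphates and early termination of lncRNA transcription. No label names the mutated gene of either suppressor, each group comes from a single strain number, and no wild-type library is among the 9. Whether the 3 libraries of a strain came from separate cultures is not stated, so p-values measure the spread between these libraries, which may be technical.

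Antisense RNAs are transcribed from the strand opposite a gene, often from the shared promoter of a neighbouring gene or by read-through from one. In fission yeast most of them are held at low levels by the nuclear exosome, by RNA interference and by chromatin factors that block transcription starts inside genes, and many lie against genes that act in meiosis. How far an antisense RNA runs also depends on where its transcription is terminated.

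Total counts ran from 15374453 to 22909747 per library, and the antisense RNAs together took 0.321% to 0.471% of them. Of the 592 RNAs, 494 passed the filter on low counts and were tested among 5951 features, and 19 had no count in any library. The 494 had mean levels between 0.376 and 269 CPM (counts scaled to library size and composition), with a median of 3.37 and quartiles of 1.34 and 8.04, and 404 of them lay under 10 CPM. CPM is not divided by transcript length, so levels are compared between strains and not between RNAs. The RNA came from whole cultures, in which fewer cells with an RNA and less RNA per cell cannot be told apart. T4A replicate 2 stood apart from the rest, with a composition factor of 0.859 against 0.978 to 1.09 in the other 8 libraries, and the main counts are given below also without it. The libraries are stranded by their kit, but no source used here states whether the counting used strand. If strand had been ignored, reads over both an RNA and its gene could not be told apart. Of 69 antisense RNAs that lie wholly inside 1 exon of the sense gene in the RefSeq annotation of ASM294v3, 58 had counts in every library.

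Antisense RNAs were lower in both suppressor strains than in T4A far more often than they were higher. In STF6, 152 of the 494 tested antisense RNAs fell and 25 rose (30.8% and 5.06%), by edgeR's quasi-likelihood test with Benjamini-Hochberg adjustment over all features and a threshold of 0.05. Over all 5951 features, 19.2% fell and 19.2% rose. In STF9, 145 antisense RNAs fell and 24 rose (29.4% and 4.86%), against 21.3% lower and 23% higher over all features. The decrease was at least 2-fold for 59 of those that fell in STF6 and for 51 in STF9, and the increase was at least 2-fold for 7 and 8. Over all 5951 features, called decreases of at least 2-fold numbered 195 in STF6 and 190 in STF9, and such increases 142 and 141. The median log2 fold change of the 494 was −0.26 in STF6 and −0.20 in STF9, beside 0.03 and 0.04 over all features. The estimate was below 0 for 363 and 327 of the 494, beside 2815 and 2761 of the 5951 features. Both comparisons use the same T4A libraries.

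Summed over all antisense RNAs, the level was 4241, 4478 and 4322 CPM in the T4A libraries. It was 3189, 3237 and 3387 CPM in STF6 and 3284, 3302 and 3274 CPM in STF9. Every library of the suppressor strains lay below every T4A library. Without the 5 most abundant RNAs the sums were 3535 to 3692 CPM in T4A, 2759 to 2917 in STF6 and 2872 to 2882 in STF9. The 3 libraries of T4A did not overlap those of STF6 for 234 of the 494 RNAs (47.4%, beside 50.3% of all features), nor those of STF9 for 214 (43.3%, beside 54% of all features).

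**Figure D1:**
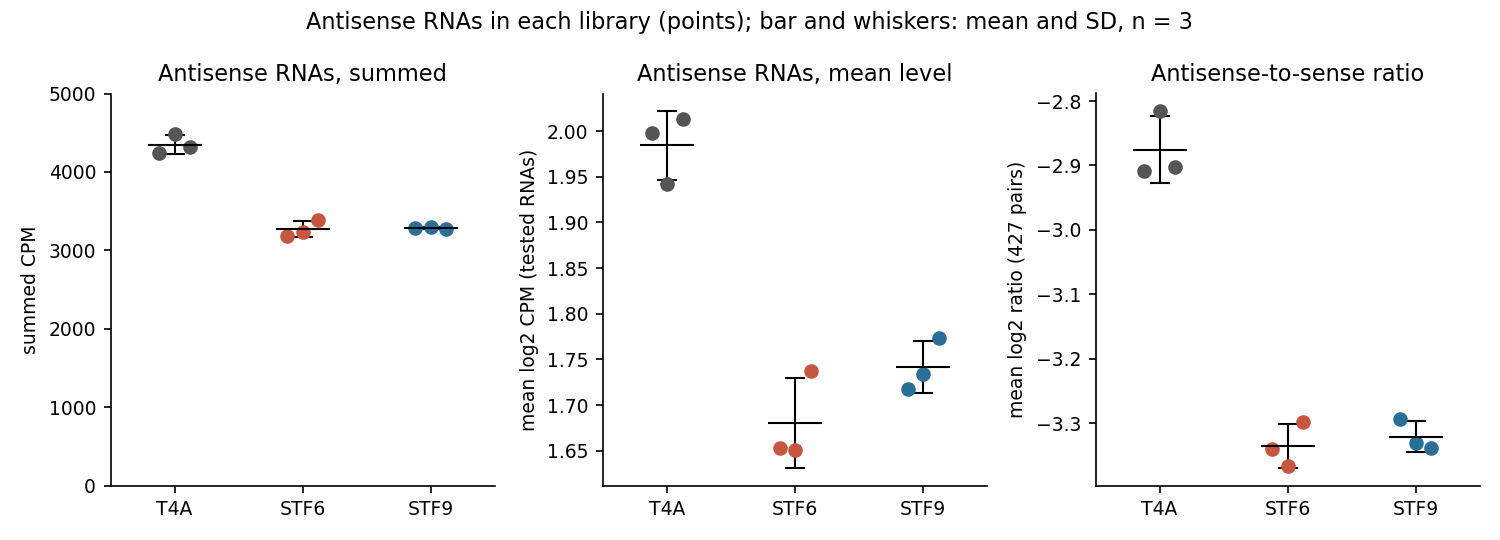
Each point is 1 library of T4A, STF6 or STF9, and the bar and whiskers are the mean and SD of the 3. The panels show the summed CPM of the antisense RNAs, the mean log2 CPM of the tested RNAs and the mean log2 ratio of antisense RNA to sense gene over 427 pairs, and in each panel the T4A libraries lie above the 6 others.

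Most tested RNAs were detected in every library. The filter on low counts has a minimum of 0.493 CPM, which 419 reached in all 9 libraries, and 142 of these fell and 24 rose in STF6, and 136 fell and 23 rose in STF9. Only 1 tested RNA was above the minimum in T4A libraries alone, and 6 in suppressor libraries alone. Among the 247 RNAs above the median level, 89 fell and 21 rose in STF6 and 88 fell and 21 rose in STF9. Among the 247 at or below the median, 63 fell and 4 rose in STF6 and 57 fell and 3 rose in STF9. Without T4A replicate 2, 170 fell and 24 rose in STF6, and 148 fell and 22 rose in STF9. The number that rose in STF6 was lower without some single libraries: 15 without T4A replicate 1, 15 without STF6 replicate 2 and 12 without STF6 replicate 3.

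Of the antisense RNAs that carry the alternative UTR mark, 48 of 95 tested fell in STF6 and 45 of 95 in STF9, and 6 rose in each. These shares of 50.5% and 47.4% were above the 30.8% and 29.4% of the 494. The medians of the marked RNAs were −0.52 and −0.43. Of the 358 remaining SPNCRNA features, 51 were lower and 41 higher in STF6, and 62 were lower and 40 higher in STF9. Among the 5004 features outside the SPNCRNA series, 894 fell and 1069 rose in STF6, and 1013 fell and 1298 rose in STF9. The differences between these classes were not tested. In the authors' deposited table for STF6, 177 of the 575 antisense RNAs with an adjusted p fell and 23 rose, beside 23.8% and 19.6% of all its features. In the authors' deposited table for STF9 these were 171 and 28 of 568, beside 27.2% and 24.2%. Of the RNAs that fell by edgeR, 98.7% in STF6 and 97.2% in STF9 also fell in the authors' deposited table.

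**Figure D2:**
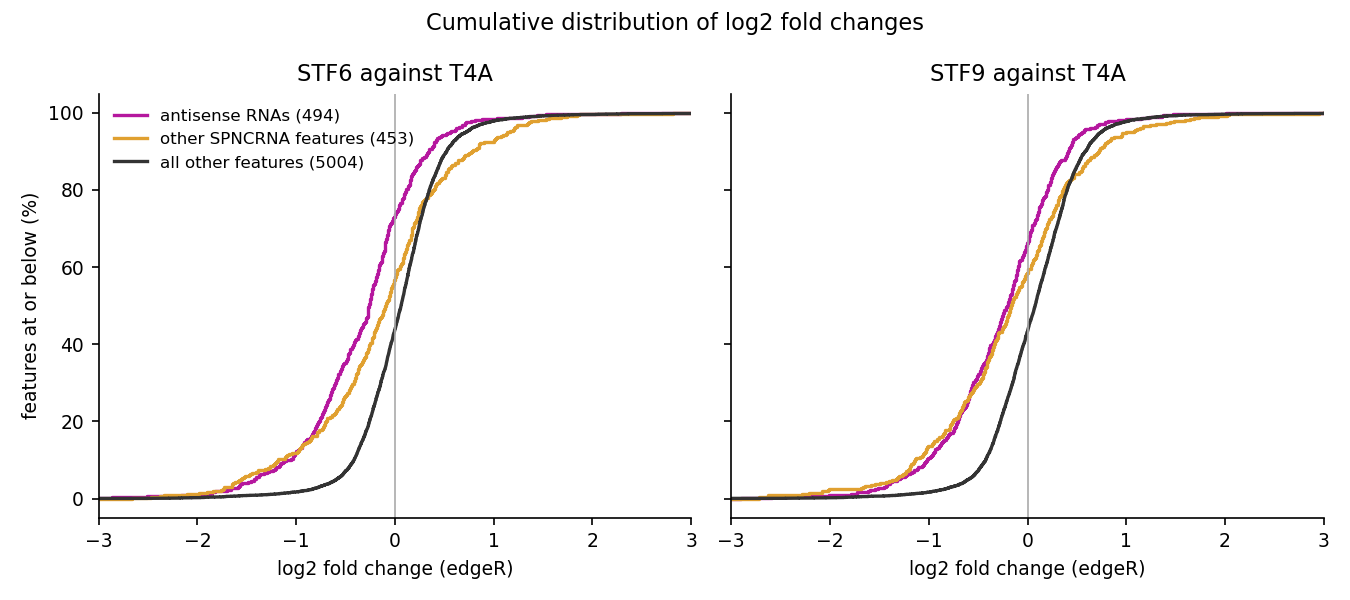
The curves give the share of features (%) with a log2 fold change against T4A at or below the value on the horizontal axis, for 494 antisense RNAs, the 453 other SPNCRNA features tested and the 5004 other features. The 453 include the 95 antisense RNAs with the alternative UTR mark. The curve of the antisense RNAs lies to the left of the curve of the 5004 other features, with medians of −0.26 in STF6 and −0.20 in STF9.

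The largest decrease was in SPAC1B3.04c-antisense-2, which lies across the 5′ end of guf1, the gene of a predicted mitochondrial elongation factor GTPase. Its level was 4.91, 4.42 and 6.28 CPM in T4A, 0.791, 0.653 and 0.686 in STF6 and 0.721, 0.894 and 0.978 in STF9. All 6 suppressor libraries lay under 1 CPM and every T4A library above 4, a log2 fold change of −2.87 ± 0.23 (SE) in STF6 and −2.59 ± 0.22 in STF9. The sense gene moved the other way: guf1 was at 0.736, 0.345 and 0.502 CPM in T4A, 4.89, 3.79 and 5.36 in STF6 and 4.17, 4.58 and 4.27 in STF9. It rose by 3.11 ± 0.25 and 3.01 ± 0.26, so that antisense and sense exchanged places in the plot of antisense and sense levels by strain. The log2 ratio of antisense to sense changed by −5.66 ± 0.25 in STF6 and −5.32 ± 0.25 in STF9, the largest changes of any pair. This RNA starts inside guf1, and with guf1 left out the nearest coding gene upstream of it is wis2, transcribed away from it. The log2 fold changes of wis2 were −0.74 ± 0.09 and −0.61 ± 0.09, both past the test. The other RNA named against guf1, SPAC1B3.04c-antisense-1, had no count in any library.

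SPCC1919.05-antisense-1 fell from a far higher CPM. It lies across the 5′ end of ski3, which encodes a subunit of the Ski complex that helps the cytoplasmic exosome. The RNA was at 90.6, 118 and 76.5 CPM in T4A, 16.5, 16.7 and 16.6 in STF6 and 19.5, 16.8 and 17.6 in STF9, and T4A replicate 2 was the highest of all. The log2 fold change was −2.51 ± 0.14 in STF6 and −2.40 ± 0.14 in STF9. ski3 itself had 21.9 to 27.9 CPM over the 9 libraries, and its fold changes of 0.06 ± 0.11 and 0.12 ± 0.11 did not pass the test. With ski3 left out, the upstream neighbour is wtf25, on the same strand as the RNA. It belongs to a family of near-identical genes, so its reads are uncertain, and its values of −0.21 and −0.22 did not pass.

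Other antisense RNAs among the largest decreases lay against genes of different roles, most of which did not pass the test in STF6. prp2-antisense-1, inside an exon of the gene of the large U2AF subunit that recognises 3′ splice sites, was at 5.59, 6.55 and 4.02 CPM in T4A, 1.44, 0.784 and 1.37 in STF6 and 1.39, 1.40 and 1.18 in STF9. It changed by −2.17 ± 0.25 and −2.01 ± 0.25, while prp2 was at 0.25 ± 0.10 in STF6, not passing, and rose by 0.31 ± 0.10 in STF9. No suppressor library reached the lowest T4A library.

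SPAC1F8.04c-antisense-1 spans a predicted hydrolase gene and starts beside str3, which encodes a siderophore-iron transporter and points away from it. The RNA was at 18.99, 25.4 and 14.8 CPM in T4A, 4.65, 4.88 and 4.74 in STF6 and 4.79, 5.59 and 6.12 in STF9, a change of −2.05 ± 0.19 and −1.84 ± 0.19. The neighbour str3 fell as well, with log2 fold changes of −2.29 and −3.04 from a mean of 0.934 CPM in T4A. The sense gene stayed at or under 1.02 CPM in every library, with log2 fold changes of 0.76 ± 0.44 and 0.995 ± 0.43 that did not pass.

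nup211-antisense-1, against a nuclear pore gene, was at 24.6, 29 and 24.1 CPM in T4A, 7.07, 7.44 and 9.47 in STF6 and 11.02, 9.84 and 8.59 in STF9, and changed by −1.70 ± 0.15 and −1.40 ± 0.15. orc1-antisense-1, against a subunit of the origin recognition complex, was at 61.9, 40.5 and 52.5 CPM in T4A, 23.03, 18.6 and 19.2 in STF6 and 18.6, 16.7 and 15.8 in STF9, a change of −1.35 ± 0.15 and −1.60 ± 0.15. tti1-antisense-1, against a gene of the ASTRA complex, which assembles large kinases, went from 21.3, 24.9 and 20.05 CPM in T4A to 8.10, 8.32 and 7.67 in STF6 and 8.24, 7.43 and 8.44 in STF9, a change of −1.45 ± 0.13 and −1.45 ± 0.13. For all 3 RNAs the suppressor libraries lay below the T4A libraries without overlap. orc1 and tti1 did not pass in either strain, and nup211 rose in STF9 (0.54 ± 0.16) and was at 0.36 ± 0.16 in STF6.

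The naming rule took 6 more RNAs for the largest decreases in either strain, besides hrp1-antisense-1, which is described with the genes that limit antisense RNAs. SPBC887.02-antisense-1, against a predicted chloride channel gene, changed by −1.94 ± 0.25 and −1.73 ± 0.25. gpi7-antisense-1, against a gene of GPI anchor synthesis, changed by −1.85 ± 0.22 and −1.79 ± 0.22. The RNA against ams2, which encodes a GATA factor of histone gene transcription, changed by −1.82 ± 0.18 and −1.42 ± 0.18. None of these 3 sense genes passed the test in either strain. hsp3101-antisense-1, against a glyoxalase III gene, changed by −1.57 ± 0.18 and −1.73 ± 0.18, and its gene rose in STF9 (0.44 ± 0.14) and was at 0.07 ± 0.14 in STF6. gcv1-antisense-1 fell together with its gene, a subunit of glycine decarboxylase: the RNA by −1.59 ± 0.21 and −1.07 ± 0.20, gcv1 by −0.31 ± 0.10 and −0.38 ± 0.10. atd3-antisense-1 changed by −1.61 ± 0.15 and −1.32 ± 0.14 while atd3, an aldehyde dehydrogenase gene, rose by 0.44 ± 0.12 and 0.36 ± 0.12.

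**Figure D3:**
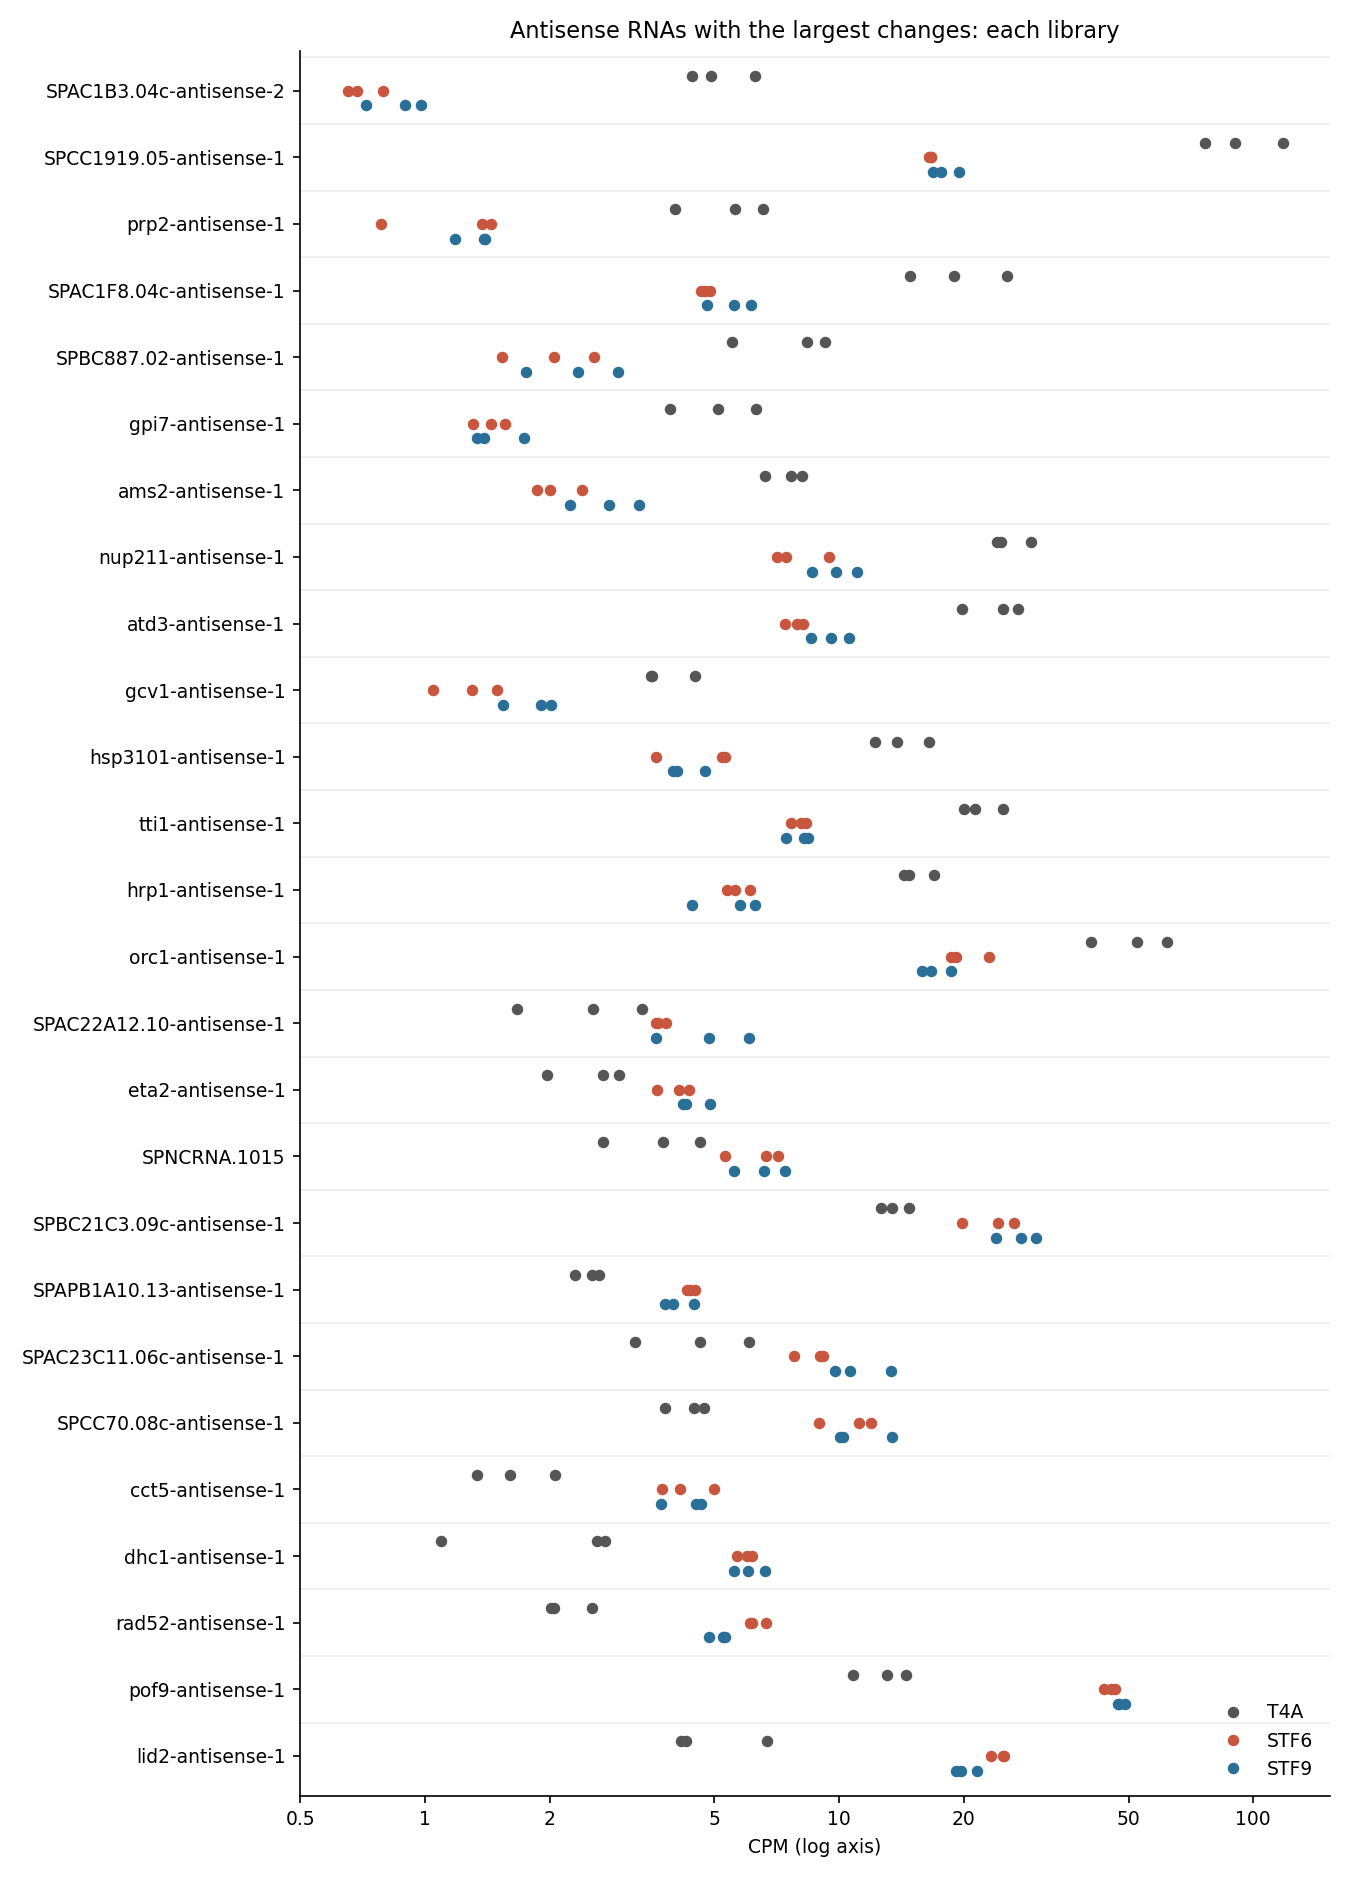
Each point is the level of 1 antisense RNA in 1 library (CPM, log axis), for the RNAs with the largest decreases and increases against T4A. From SPAC1B3.04c-antisense-2 down to orc1-antisense-1 the T4A libraries (grey) lie to the right of both suppressor strains, and from SPAC22A12.10-antisense-1 down to lid2-antisense-1 they lie to the left.

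A small set of antisense RNAs rose. lid2-antisense-1, inside an exon of the gene of a jmjC-domain subunit of the Lid2 histone demethylase complex, was at 4.27, 6.72 and 4.14 CPM in T4A, 25.1, 23.3 and 24.9 in STF6 and 21.5, 19.7 and 19.1 in STF9. The increase was 2.29 ± 0.17 in STF6 and 2.01 ± 0.17 in STF9, and every suppressor library lay well above T4A replicate 2, the highest of its group. lid2 also rose, by only 0.28 ± 0.09 and 0.25 ± 0.09.

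pof9-antisense-1 spans the gene of an F-box protein, a substrate adaptor for ubiquitin ligases. It was at 10.8, 14.5 and 13.1 CPM in T4A, 46.2, 45.2 and 43.5 in STF6 and 47.2, 48.9 and 47.3 in STF9, increases of 1.82 ± 0.11 and 1.91 ± 0.11. pof9 did not pass (−0.18 ± 0.15 and −0.10 ± 0.15), and the neighbour SPBC3H7.05c, which points away from this RNA, rose by 0.66 and 0.69. rad52-antisense-1, against the gene of the recombination mediator Rad52, rose by 1.53 ± 0.16 and 1.23 ± 0.16, from 2.01, 2.53 and 2.05 CPM in T4A to 6.10, 6.66 and 6.17 in STF6 and 5.31, 4.86 and 5.25 in STF9. The level of rad52 itself stayed between 15.7 and 18.9 CPM over the 9 libraries and did not pass.

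In some pairs both strands rose. SPCC70.08c-antisense-1 rose by 1.29 ± 0.17 and 1.37 ± 0.17 and the predicted methyltransferase gene SPCC70.08c by 0.998 ± 0.18 and 1.04 ± 0.18, and the ratio of the pair did not pass (0.23 ± 0.24 and 0.26 ± 0.24). dhc1-antisense-1, against the dynein heavy chain gene that moves the nucleus in meiotic prophase, rose by 1.44 ± 0.24 and 1.47 ± 0.24, and dhc1 by 0.46 ± 0.10 and 0.31 ± 0.10. SPAPB1A10.13-antisense-1 rose by 0.81 ± 0.16 and 0.71 ± 0.16, and its gene by 0.77 ± 0.12 and 0.84 ± 0.12. Others rose over a gene that did not pass in STF6. cct5-antisense-1, against a chaperonin subunit gene, rose by 1.36 ± 0.21 and 1.36 ± 0.21. SPBC21C3.09c-antisense-1, against oaa1, rose by 0.78 ± 0.14 and 0.99 ± 0.14. The unpaired SPNCRNA.1015 rose by 0.77 ± 0.20 and 0.81 ± 0.20.

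The genes of inositol pyrophosphate metabolism in the series' title are met by 2 of the antisense RNAs, and neither was abundant enough to be tested. asp1-antisense-1 lies across the 5′ end of asp1, which encodes an enzyme of inositol pyrophosphate metabolism. It had 8, 7 and 14 counts in T4A, 3, 10 and 4 in STF6 and 1, 4 and 7 in STF9. asp1 itself was at 23.9, 21.2 and 22.6 CPM in T4A, 44.6, 46.7 and 45.9 in STF6 and 46.2, 47.9 and 52.4 in STF9, and rose by 1.02 ± 0.10 and 1.11 ± 0.10 on the log2 scale. aps1-antisense-1 lies across the 5′ end of aps1, which encodes a hydrolase of diadenosine polyphosphates and inositol pyrophosphates. It had 6, 1 and 8 counts in T4A, 10, 6 and 4 in STF6 and 12, 7 and 15 in STF9. aps1 was at 82.8, 56.97 and 84.5 CPM in T4A, 143, 132 and 126 in STF6 and 117, 123 and 124 in STF9, and rose by 0.84 ± 0.12 and 0.70 ± 0.12. For both genes the T4A libraries lay below all 6 others, while at these counts no difference of the antisense RNAs could be read. No antisense RNA of the 592 is named against pho1, pho84, tgp1, pho7 or rpb1.

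A pair of further RNAs is named for the increase in STF9. eta2-antisense-1, one of 4 RNAs named against a Myb-family gene, rose by 0.68 ± 0.19 and 0.82 ± 0.19, and the other 3 had no count in any library. Its STF6 call was lost without STF6 replicate 2. SPAC22A12.10-antisense-1, against the phospholipid synthesis gene ept1, rose by 0.92 ± 0.24 in STF9, a call lost without STF9 replicate 3, and was at 0.53 ± 0.25 in STF6, which passed without T4A replicate 3.

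The 5 antisense RNAs with the highest mean CPM all fell in both strains. SPNCRNA.1626, which has no named sense gene, was at 352, 356 and 389 CPM in T4A, 203, 265 and 262 in STF6 and 194, 205 and 194 in STF9, changes of −0.59 ± 0.10 and −0.89 ± 0.10. spo4-antisense-1 spans a sporulation kinase gene and was at 93.3, 118 and 99.2 CPM in T4A, 59.3, 57.6 and 56.97 in STF6 and 61.97, 59.1 and 55.98 in STF9, changes of −0.83 ± 0.09 and −0.81 ± 0.09. spo4 itself stayed at or under 0.287 CPM in every library and was not tested. The unpaired SPNCRNA.979 changed by −0.36 ± 0.09 and −0.41 ± 0.09.

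Sense genes were examined next. Of the 493 sense genes tested, 123 rose and 65 fell in STF6 (24.9% and 13.2%), and 154 rose and 61 fell in STF9 (31.2% and 12.4%), beside 19.2% and 23% of all features that rose and 19.2% and 21.3% that fell. Among the 5004 features outside the SPNCRNA series, 21.4% rose and 17.9% fell in STF6, and 25.9% rose and 20.2% fell in STF9. The median log2 fold change of the sense genes was 0.11 in STF6 and 0.18 in STF9. For those 5004 features it was 0.06 and 0.08, and the difference was not tested. Fewer sense genes fell in STF6 whichever STF6 library was left out: 34 without replicate 1, 34 without replicate 2 and 43 without replicate 3. Without STF6 replicate 3, 76 rose. In STF9, 40 sense genes fell without STF9 replicate 2 and 31 without STF9 replicate 3, and 94 rose without STF9 replicate 3.

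Both RNAs of a pair were tested in 427 pairs, and the log2 ratio of antisense to sense within each library, which hardly depends on how libraries are scaled, was compared between strains with limma. The ratio fell in 149 pairs (34.9%) and rose in 21 (4.92%) in STF6, and in STF9 the counts were the same, 149 and 21. Averaged over the pairs, the log2 ratio was −2.91, −2.82 and −2.90 in the T4A libraries, −3.34, −3.37 and −3.30 in STF6 and −3.29, −3.33 and −3.34 in STF9. Every suppressor library lay below every T4A library.

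Of the 136 pairs whose antisense RNA fell in STF6, the sense gene rose in 40 (29.4%), fell in 11 (8.09%) and did not pass in 85. In the other 291 pairs the sense gene rose in 71 (24.4%) and fell in 41 (14.1%). In STF9, 54 of 128 sense genes whose antisense RNA fell were higher (42.2%) and 9 were lower (7.03%), beside 87 and 41 of the other 299 (29.1% and 13.7%). Across the 427 pairs the fold changes of antisense and sense had a Pearson r of −0.138 and a Spearman rho of −0.093 in STF6, and −0.225 and −0.188 in STF9. The points of such a correlation share their 6 libraries, so it is given as a description only.

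**Figure D4:**
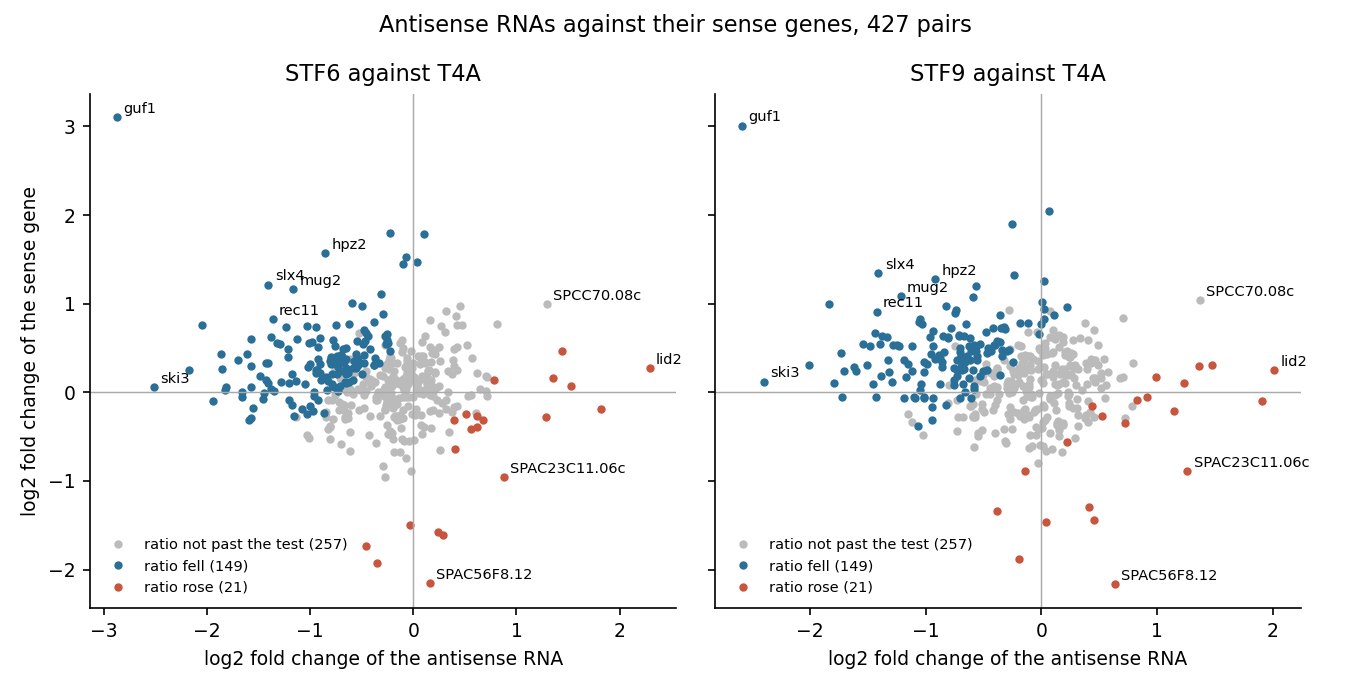
Each point is 1 of 427 pairs, with the log2 fold change of the antisense RNA against T4A on the horizontal axis and that of the sense gene on the vertical axis. Blue points are the 149 pairs whose ratio fell, red points the 21 whose ratio rose, and guf1 stands alone at the upper left.

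Besides guf1, several pairs moved in opposite directions. slx4-antisense-1, across the 5′ end of the gene of a structure-specific endonuclease subunit, was at 31.7, 37.2 and 32.8 CPM in T4A, 12.8, 11.9 and 13.8 in STF6 and 13.5, 13.6 and 11.2 in STF9. slx4 was at 4.32, 2.24 and 4.35 CPM in T4A, 8.38, 8.53 and 8.79 in STF6 and 8.50, 9.17 and 10.4 in STF9, so each strand separated the strains without overlap, in opposite senses. The RNA changed by −1.40 ± 0.13 and −1.41 ± 0.13, the gene by 1.21 ± 0.21 and 1.35 ± 0.21, and the ratio by −2.67 ± 0.30 and −2.80 ± 0.30.

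mug2-antisense-1, also among the 5 with the highest CPM, was at 131, 152 and 123 CPM in T4A, 59.8, 60.3 and 61.6 in STF6 and 62.4, 56.3 and 56.2 in STF9. mug2, a gene named for its induction in meiosis, was at 2.26, 2.01 and 2.93 CPM in T4A, 5.77, 4.44 and 6.23 in STF6 and 4.58, 5.31 and 5.56 in STF9. The RNA changed by −1.16 ± 0.09 and −1.22 ± 0.09 and the gene rose by 1.17 ± 0.20 and 1.08 ± 0.20. In rec11, which encodes a meiotic cohesin subunit, the antisense RNA changed from 4.76, 4.59 and 4.98 CPM in T4A to 2.14, 1.52 and 1.93 in STF6 and 2.21, 1.68 and 1.44 in STF9. rec11 was at 2.80, 1.67 and 2.97 CPM in T4A, 3.68, 4.79 and 4.99 in STF6 and 4.12, 5.03 and 5.04 in STF9. The log2 fold changes were −1.36 ± 0.20 and −1.42 ± 0.20 for the RNA and 0.83 ± 0.22 and 0.91 ± 0.22 for the gene.

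SPBC215.07c-antisense-1 spans pdp2, the gene of a predicted PWWP domain protein, and was at 65.8, 90.5 and 75.2 CPM in T4A, 39.1, 42.7 and 40.4 in STF6 and 45.6, 47.2 and 39.7 in STF9. It changed by −0.92 ± 0.12 and −0.80 ± 0.12, and pdp2 rose by 0.51 ± 0.18 and 0.62 ± 0.18. In each of guf1, slx4, mug2, rec11 and pdp2 the lowest sense level was that of T4A replicate 2, the library that stands apart. Without it, 151 ratios fell and 22 rose in STF6, and 149 fell and 21 rose in STF9. Pairs with opposite changes chosen after their values were seen include hpz2, the gene of a zinc finger protein (RNA −0.85 and −0.92, gene 1.57 and 1.28), cdc18, a loader of replication helicases (−1.03 and −0.93, 0.74 and 0.69), and tho4, a predicted mRNA export factor (−0.49 and −0.57, 0.97 and 1.20).

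**Figure D5:**
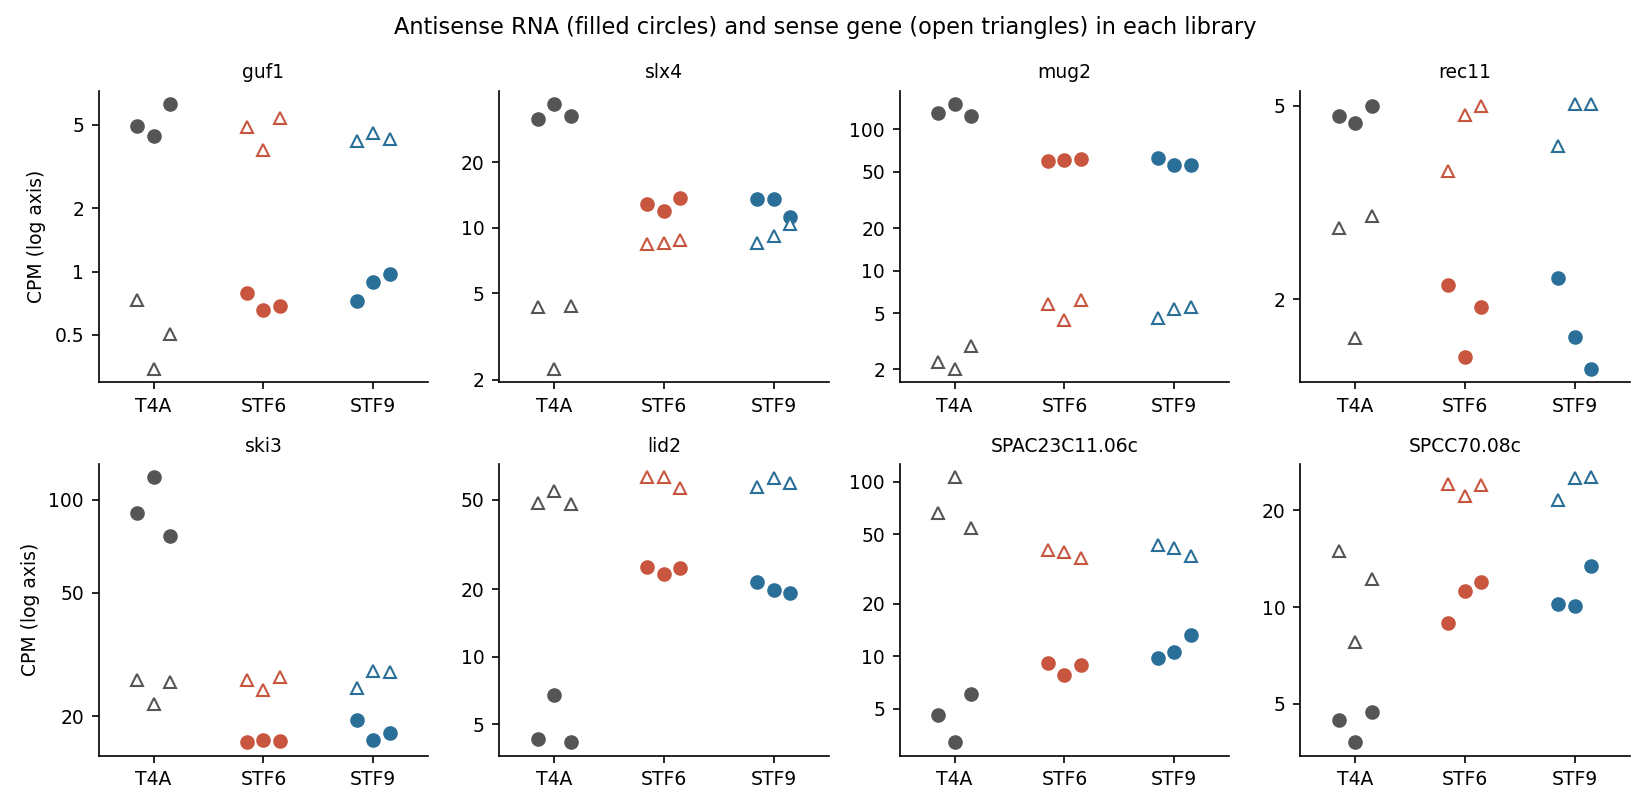
CPM (log axis, a different scale in each panel) of 8 antisense RNAs (filled circles) and their sense genes (open triangles), 1 symbol per library, replicates 1 to 3 from left to right. In guf1, slx4, mug2 and rec11 the circles fall and the triangles rise from T4A to the suppressors, in ski3 the circles alone fall, in lid2 and SPCC70.08c both rise, and in SPAC23C11.06c the circles rise and the triangles fall.

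In the other pairs named for a rising ratio besides lid2 and pof9, the sense gene fell. SPAC56F8.12, a predicted membrane protein gene, went from 2.26, 1.67 and 2.26 CPM in T4A to 0.419, 0.566 and 0.374 in STF6 and 0.618, 0.335 and 0.412 in STF9, changes of −2.16 ± 0.28 and −2.17 ± 0.29. Its antisense RNA was at 7.41, 8.44 and 8.33, 8.65, 9.40 and 8.98 and 13.3, 12.8 and 11.4 CPM in the same order. The RNA did not pass in STF6 (0.16 ± 0.13) and rose in STF9 (0.64 ± 0.13). In SPCC663.08c, a predicted dehydrogenase gene, and imt2, a mannosyltransferase gene, the gene changed by −1.61 ± 0.16 and −1.30 ± 0.16 and by −1.58 ± 0.19 and −1.44 ± 0.19. Their antisense RNAs had values of 0.29 ± 0.19 and 0.41 ± 0.19 and of 0.24 ± 0.19 and 0.45 ± 0.19, none of which passed. SPCC663.08c-antisense-1 passed as an increase in both strains without T4A replicate 3, and imt2-antisense-1 in STF9 without T4A replicate 3 or without STF9 replicate 1.

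Pairs in which the antisense RNA rose and the gene fell numbered 2 in STF6 and 3 in STF9. SPAC23C11.06c-antisense-1, against a vacuolar membrane hydrolase gene, was in both, at 4.61, 3.22 and 6.07 CPM in T4A, 9.17, 7.79 and 8.98 in STF6 and 9.79, 10.6 and 13.3 in STF9. The gene was at 66.1, 106 and 54.5 CPM in T4A, 40.7, 39.5 and 36.3 in STF6 and 43.6, 41.5 and 37.3 in STF9, with T4A replicate 2 the highest. The RNA rose by 0.88 ± 0.21 and 1.26 ± 0.21 and the gene changed by −0.95 ± 0.19 and −0.88 ± 0.19. The other in STF6 was spo14 (RNA 0.61, gene −0.27), and the others in STF9 were SPBC31F10.02 (0.72 and −0.34) and SPAC56F8.12.

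The position of an antisense RNA relative to its gene was read from RefSeq's annotation of ASM294v3, which places 519 of the 532 pairs. Of these, 212 RNAs cover the 5′ end of the gene, 86 the 3′ end, 93 span the gene and 119 lie within it, and 510 overlap the gene on the opposite strand. In the other 9 the annotation goes against the name, with no overlap in 3, the same strand in 3 and another chromosome in 3. RNAs within the gene fell in 40 of 95 tested in STF6 (42.1%, median log2 fold change −0.51) and in 37 of 95 in STF9 (38.9%, median −0.38). For RNAs over the 5′ end these were 52 and 47 of 180 (28.9% and 26.1%), for RNAs over the 3′ end 22 and 19 of 72 (30.6% and 26.4%), and for RNAs spanning the gene 25 and 28 of 89 (28.1% and 31.5%). Among those inside a single exon, where strand matters most to the count, 25 of 51 fell in STF6 and 23 of 51 in STF9. The difference between positions was not tested.

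The upstream neighbour was the nearest protein-coding gene wholly upstream of the RNA's start, at any distance, with the named sense gene left out. RNAs over the 5′ end of a gene or within it start inside that gene, so part of it lies before the neighbour. Of the RNAs found in that annotation, 358 have as upstream neighbour a gene that points away from them and 221 a gene on their own strand. Decreases numbered 98 of 312 and 53 of 181 tested in STF6 (31.4% and 29.3%), in that order, and 93 and 51 in STF9 (29.8% and 28.2%). Between the fold changes of an RNA and of its neighbour, Pearson's r across RNAs was, in STF6, 0.113 over 308 diverging neighbours and −0.0552 over 173 on the same strand, and in STF9 it was 0.113 and −0.0514, a description over RNAs that share their libraries. Neighbours of named RNAs moved both ways. While wis2, str3 and SPBC3H7.05c changed in the direction of their RNA, others rose where the RNA fell. These include ent1 (0.52 and 0.59, nup211-antisense-1), psd3 (0.47 and 0.49, gcv1-antisense-1) and rei1 (0.41 and 0.32, rec11-antisense-1).

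Of 33 tested antisense RNAs whose sense gene was on the list of meiotic genes, 16 fell and 2 rose in STF6 (48.5% and 6.06%, beside 30.8% and 5.06% of all 494), with a median of −0.35. In STF9, 17 fell and 1 rose (51.5% and 3.03%, beside 29.4% and 4.86%), with a median of −0.40. The difference from the other antisense RNAs was not tested. Of the 150 tested genes of that list, 29 rose and 24 fell in STF6 (19.3% and 16%, beside 19.2% and 19.2% of all features) and 27 rose and 25 fell in STF9 (18% and 16.7%, beside 23% and 21.3%), with medians of 0.0055 and 0.00064. Besides those of mug2, rec11 and spo4, the antisense RNAs that fell in both strains included those of spn2, a septin gene (−1.57 ± 0.27 and −1.62 ± 0.27), mcp1 (−0.78 ± 0.26 and −1.11 ± 0.27), meu14 (−0.48 ± 0.11 and −0.60 ± 0.11) and bgs2, a spore wall glucan synthase gene (−0.43 ± 0.09 and −0.40 ± 0.09). mug135 has 2 such RNAs, and both fell in both strains, with −0.94 ± 0.16 and −0.66 ± 0.15 for mug135-antisense-1 and −0.93 ± 0.23 and −0.86 ± 0.23 for SPCC330.04c-antisense-1. Those of hop1 and rec12, which act in meiotic recombination, did not pass in either strain (0.42 and 0.10 for hop1-antisense-1, 0.11 and −0.25 for rec12-antisense-1).

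Of 55 genes listed because their products are known to limit antisense RNAs, most did not pass the test in either strain: 38 in STF6 and 29 in STF9. In STF6, 14 rose and 3 fell (25.5% and 5.45%, beside 19.2% and 19.2% of all features), and in STF9, 21 rose and 5 fell (38.2% and 9.09%, beside 23% and 21.3%). Their median log2 fold changes were 0.16 and 0.23, beside 0.03 and 0.04 over all features. Of the exosome genes and their partners, rrp43 fell in both strains, and not all are given here. The gene red1, which directs RNAs to the nuclear exosome, changed by 0.64 ± 0.15 and 0.74 ± 0.15. rrp6, a nuclear exosome nuclease, changed by 0.52 ± 0.16 and 0.63 ± 0.16, rrp40 by 0.42 ± 0.12 and 0.62 ± 0.12, and dis3 by 0.22 ± 0.08 and 0.27 ± 0.08. Among chromatin genes, the remodeller genes hrp3 and fft2 rose by 0.52 ± 0.12 and 0.71 ± 0.12 and by 0.56 ± 0.12 and 0.73 ± 0.12, and clr6, a histone deacetylase, by 0.37 ± 0.08 and 0.28 ± 0.08. ago1, the Argonaute of RNA interference, changed by −0.40 ± 0.10 and −0.46 ± 0.10, and prw1 fell in both strains as well.

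Antisense RNAs lie against 7 genes of this list, and 6 of them were tested. In each strain 4 fell and none rose (median −0.89 and −0.66). That is 66.7% of only 6 RNAs, beside 30.8% and 29.4% of all 494 antisense RNAs that fell, a difference that was not tested. hrp1-antisense-1, inside an exon of a Chd1-type remodeller gene, was at 14.7, 16.9 and 14.3 CPM in T4A, 6.10, 5.62 and 5.36 in STF6 and 6.28, 5.76 and 4.42 in STF9, changes of −1.42 ± 0.15 and −1.48 ± 0.15. hrp1 rose in STF9 (0.52 ± 0.14) and was at 0.33 ± 0.14 in STF6. The others that fell were hip3-antisense-1 (−0.998 ± 0.16 and −0.61 ± 0.15), cph1-antisense-1 (−0.97 ± 0.10 and −0.95 ± 0.10) and arb1-antisense-1 (−0.53 ± 0.14 and −0.59 ± 0.14). pab2-antisense-1 (−0.24 ± 0.16 and −0.30 ± 0.16) and hip1-antisense-1 (−0.80 ± 0.42 and −0.71 ± 0.42) did not pass. cid14-antisense-1 was not tested, with 7 to 16 counts in the T4A libraries and 2 to 5 in the others.

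Lists of other gene groups that changed in these strains, chosen with earlier results of these data known, held few antisense RNAs. Of 26 stress and iron genes, 20 fell and none rose in each strain (76.9% fell, beside 19.2% and 21.3% of all features). The 1 antisense RNA among them, caf5-antisense-1, did not pass (−0.35 and −0.20). Of 52 tested genes of respiration, 35 rose and 1 fell in STF6 and 32 rose and 1 fell in STF9. The shares that rose were 67.3% and 61.5%, beside 19.2% and 23% of all features. Of the 2 antisense RNAs tested there, atp18-antisense-1 did not pass (0.32 and −0.01), and qcr10-antisense-1 fell in STF9 (−0.96) and did not pass in STF6 (−0.94).

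Between the suppressor strains no antisense RNA differed by the adjusted test. Neither edgeR nor DESeq2 called any of the 494 between STF9 and STF6, and over all 5951 features edgeR called 0% and DESeq2 called 1 feature. At an unadjusted p under 0.05 edgeR counted 32 of the 494 antisense RNAs and DESeq2 23. By edgeR this was a larger share than the 178 of all 5951 features (2.99%) or the 8 of 493 sense genes, a difference that was not tested. The libraries of the strains did not overlap for 85 of the 494 antisense RNAs (17.2%, beside 17% of all features). Of the 427 ratios none was called, and 29 had an unadjusted p under 0.05 (6.79%). The median difference of the antisense RNAs, STF9 minus STF6, was 0.05, and 80% of them lay between −0.26 and 0.43.

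RNAs named against the same gene had unlike values in ski3 and vps1301. In ski3 the second RNA, SPCC1919.05-antisense-2, was at a mean of 0.856 CPM in T4A, 0.736 in STF6 and 0.607 in STF9 and did not pass, while the first was 5.71-fold lower in STF6 and 5.27-fold lower in STF9. vps13a-antisense-1 fell in STF6 (−0.44 ± 0.16) and was at 0.09 ± 0.16 in STF9, and vps13a-antisense-2 did not pass in either strain (0.11 ± 0.16 and 0.25 ± 0.16). The difference between RNAs of 1 gene was not tested.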

How the data were processed

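Poly(A)+ RNA was sequenced as 9 stranded paired-end libraries, per the labels' protocols. The submitters' processing notes name HISAT2 2.1.0, SAMtools, HTSeq 0.10.0, DESeq2 and genome build ASM294v2 without saying which annotation, counting options or strand setting were used. The deposited count table holds whole-number counts per feature for each library, and 1 all-zero repeated line was dropped. The authors' deposited DESeq2 tables were used for product names, for their log2 fold changes and for their adjusted p-values, which decided the calls quoted from them. The mean signal, standard error and test score columns that the authors deposited beside them were not used.

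The members and gene lists were chosen with earlier results of these data known. Counts were fitted with edgeR 4.0.16 (R 4.3.3; filterByExpr with a minimum count of 10, TMM scaling, quasi-likelihood test, 3 groups of 3 libraries, Benjamini-Hochberg over 5951 features). Ratios were tested with limma 3.58.1 of log2 CPM (prior count 2). SE is that of the log2 fold change. Calls need an adjusted p under 0.05. Sense genes were matched by common name (338), identifier (186) or other name (8), and 4 names had no match. RefSeq's ASM294v3 annotation gave names and relative positions only, for 579 of the RNAs. Being of another build, it was not used for coordinates, sequences or promoter motifs. Named are the called, non-overlapping RNAs of mean log2 CPM of at least 1 with the 10 largest changes each way per suppressor, the 5 highest levels, the 5 largest ratio changes each way and RNAs against genes that limit antisense RNAs or against pho1, pho84, tgp1, pho7, asp1, aps1 or rpb1, the last 2 kinds at any level. RNAs of those 2 kinds under a mean log2 CPM of 1 were described but left out of the recomputed fold changes of named RNAs. Ranking by CPM per length could not be done without lengths. The fits were tested on simulated data.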

Additional observations from a re-analysis of the deposited data

How the results depend on the processing

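The counts of antisense RNAs, sense genes and ratios past the threshold were recomputed under scaling by median ratios or by library size alone, no filter or a stricter one, other prior counts, DESeq2 1.42.0, a replicate block, the 6 libraries compared alone, and without each library. With only the 6 libraries compared, 128 antisense RNAs fell and 16 rose in STF6, and 118 fell and 18 rose in STF9. Sense genes that rose numbered 88 in STF6 and 109 in STF9, and those that fell 39 and 47. In that setting 1 sense gene was higher in STF9 than in STF6. Each of these counts against T4A was lower than with all 9 libraries. The cause was not tested, but fewer libraries then enter the estimate of spread.

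Leaving out 1 library at a time, antisense RNAs that fell numbered 111 to 170 in STF6 and 107 to 148 in STF9, and those that rose 12 to 28 and 16 to 29. Sense genes that rose numbered 76 to 141 in STF6 and 94 to 177 in STF9, and those that fell 34 to 80 and 31 to 90. Ratios that fell numbered 115 to 153 in STF6 and 118 to 149 in STF9, and those that rose 15 to 24 and 17 to 30. Between STF9 and STF6 every such count was 0.

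Correlations of the deviations of same-numbered libraries ran from −0.306 to 0.38, and those of libraries with different numbers from −0.364 to 0.389. With 3 libraries per group this cannot decide whether the numbers pair the libraries. With the replicate block, 151 antisense RNAs fell and 24 rose in STF6, and 143 fell and 27 rose in STF9. DESeq2 counted 150 lower and 20 higher in STF6, and 146 and 21 in STF9. With library size alone, 118 fell in STF6 and 108 in STF9, and the median log2 fold change of all features moved from 0.03 to 0.09 in STF6 and from 0.04 to 0.09 in STF9. In the pairs that overlap on opposite strands in RefSeq, an alternative chosen after seeing the data, 147 ratios fell and 20 rose in STF6 and 146 and 20 in STF9. Among the recomputed fold changes of named RNAs and genes, 62 lost their call and 23 gained one. None that was called in either fit changed sign, and sign changes without a call were not counted. Most antisense RNAs lie under 10 CPM, and what size of change could be detected at that level was not measured.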
